A study of Mus musculus with 12 samples.

Results

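The 10 genes described here mark CD4 T cells and, among them, the regulatory T cells of a tumour. They were chosen by symbol, as a fixed list of Cd4, Foxp3, Ikzf2, Il2ra, Il2rb, Ccr8, Tnfrsf4, Tnfrsf18, Icos and Cd40lg, and all 10 were present among the 32416 gene symbols of the expression table. The study measured polyA RNA of whole subcutaneous B16 melanomas grown in C57BL/6 mice, in 12 libraries. The tumours either over-expressed Aoah or carried the control Vector. Aoah is the gene of acyloxyacyl hydrolase, an enzyme that removes fatty acyl chains from bacterial lipopolysaccharide. B16mhgp100 tumours (4 Aoah and 4 Vector) came from mice given anti-PD1 at 200 µg per dose from day 10 after inoculation. B16F10 tumours (2 Aoah and 2 Vector) came from mice given anti-PD1 together with anti-CTLA4, again at 200 µg per dose, from day 6. Dosing ended after 4 doses in both models, and the harvest followed 1 day later. B16F10 is a mouse melanoma line, and the labels do not explain the name B16mhgp100. All 12 tumours were therefore from treated mice. The tumour line, the antibodies and the first day of dosing changed together, so an effect of anti-CTLA4 and an effect of the line cannot be told apart. The labels do not say whether an over-expressing line was 1 clone, nor whether each tumour had a mouse of its own. The p-values therefore set group differences only against the spread of the tumours in each fit, which may be partly technical.

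CD4 is the co-receptor that binds MHC class II on helper and regulatory T cells. Regulatory T cells are defined by the transcription factor FOXP3, depend on interleukin 2 that they bind through a high-affinity receptor containing the IL2RA chain, and restrain other T cells. In tumours they often carry CCR8, OX40, GITR, ICOS and CTLA4 at high levels, and CTLA4 is the target of one of the antibodies used here.

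Aoah was measured as the check of the labels. In B16mhgp100 it stood at 7.58, 0.89, 2.43 and 1.57 TPM (transcript abundance scaled to a fixed library total) in the Vector tumours and at 17.92, 22.46, 13.96 and 3.91 TPM in the Aoah tumours. In B16F10 it stood at 1.49 and 0.75 TPM in Vector and at 21.75 and 23.73 TPM in Aoah. The fourth Aoah tumour of B16mhgp100 lay below the highest Vector tumour, so it is named as the library labelled Aoah 4. That library also stood apart in other ways. Its median correlation with the other libraries was 0.899, against 0.959 or more elsewhere, and its keratinocyte marker genes summed to 5566 TPM, against at most 30.4 TPM elsewhere. Its skeletal muscle genes summed to 3287 TPM, against at most 576 TPM elsewhere. Its melanocyte genes, which mark the tumour cells, summed to 7754 TPM, against 15570 to 29163 TPM elsewhere. The second Vector tumour of B16F10 had 10.4% mitochondrial RNA, against 2.77% to 6.38% in the others, and skeletal muscle genes at 167 TPM, against 16.1 to 18.2 TPM in the other B16F10 tumours. The TPM of a library added up to 992185 at the lowest and 996590 at the highest, and 13775 to 14791 genes reached 1 TPM. TPM keeps no read depth, so no counting interval can be given.

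Promoters are shown for 3 of the genes, because Foxp3 defines regulatory T cells and because Tnfrsf4 and Tnfrsf18 are neighbours on chromosome 4 whose levels are compared later. RefSeq promoter sequences (GRCm38.p6) were found for 5 of the 10 genes, Foxp3, Il2ra, Ccr8, Tnfrsf4 and Tnfrsf18. Foxp3 had 2 entries, of which the downstream start is shown. Each sequence covers the 250 bases before the start, 5′ to 3′ on the plus strand, and capitals mark a STAT match.
Foxp3 (chrX:7580233-7580482): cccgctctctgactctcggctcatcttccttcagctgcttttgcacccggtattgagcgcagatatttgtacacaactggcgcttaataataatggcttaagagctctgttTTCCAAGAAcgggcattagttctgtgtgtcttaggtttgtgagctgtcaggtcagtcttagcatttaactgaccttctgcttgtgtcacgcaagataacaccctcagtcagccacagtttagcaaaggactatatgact
Tnfrsf4 (chr4:156013445-156013694): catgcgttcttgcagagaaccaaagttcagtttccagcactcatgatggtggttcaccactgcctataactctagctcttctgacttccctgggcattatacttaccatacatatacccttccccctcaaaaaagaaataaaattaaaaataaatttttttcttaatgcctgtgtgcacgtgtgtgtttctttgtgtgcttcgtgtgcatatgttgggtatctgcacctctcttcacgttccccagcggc
Tnfrsf18 (chr4:156026072-156026321): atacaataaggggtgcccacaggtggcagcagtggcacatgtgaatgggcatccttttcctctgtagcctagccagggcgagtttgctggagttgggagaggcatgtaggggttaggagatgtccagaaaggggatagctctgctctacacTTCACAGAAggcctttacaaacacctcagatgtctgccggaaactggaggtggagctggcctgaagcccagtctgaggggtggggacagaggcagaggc
The STAT motif TTCNNNGAA is of interest because interleukin 2 signals through STAT5. It matched once in the Foxp3 window shown and once in that of Tnfrsf18, and 7.02% of 32851 promoter windows of the same length hold it. The RUNX letters TGTGGT (14.0% of windows), the T-box letters TCACACC (3.33%), the forkhead letters GTAAACA (3.17%) and the kappa-B motif (1.41%) were also searched on both strands. None of these was present in the 6 windows of the 5 genes, nor was the STAT motif in the other 4 windows. A match is a run of letters and not a measured binding site.

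**Figure D1:**
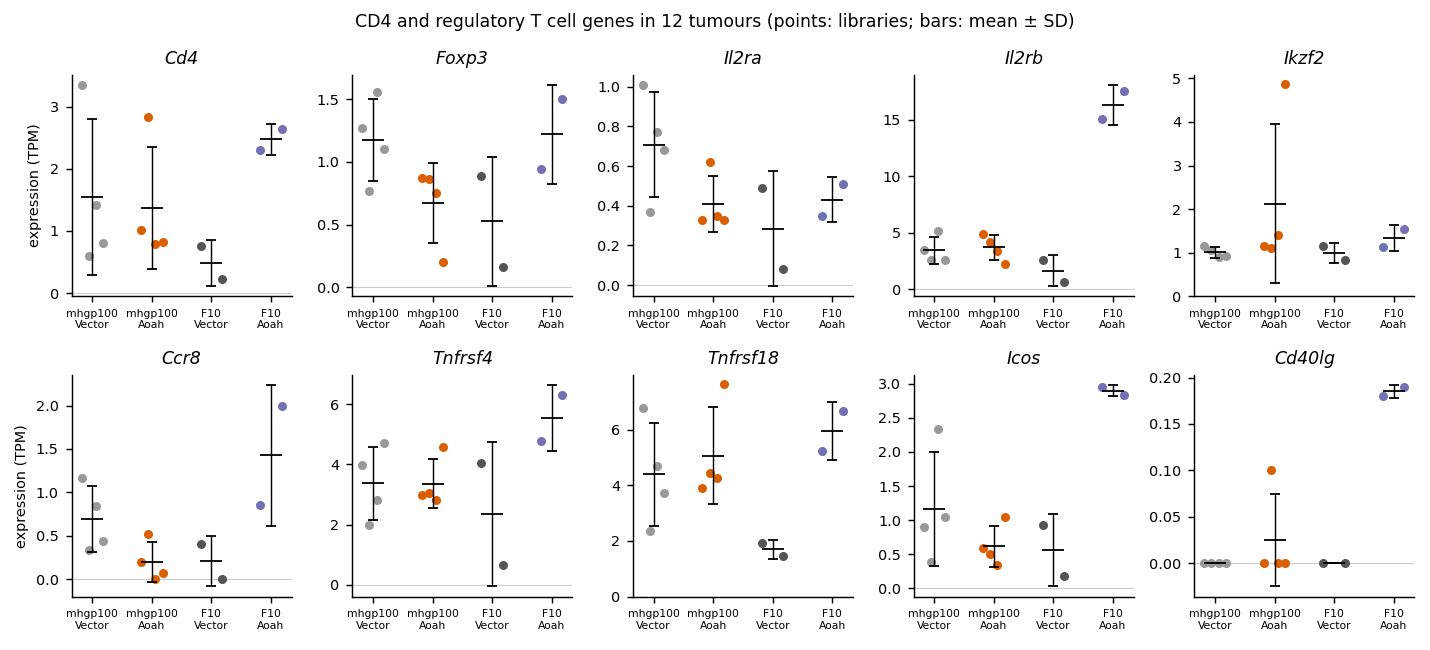
Expression of the 10 genes in TPM (vertical axes, each on its own linear scale) in the 4 groups. Points are single tumours and bars are mean ± SD; Il2rb stands at 15.05 and 17.57 TPM in the B16F10 Aoah tumours and at most 5.13 TPM in every other tumour.

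Across all 12 tumours these genes were low. The group means ran from 0 TPM for Cd40lg to 16.3 ± 1.78 TPM (SD, n = 2) for Il2rb in B16F10 Aoah tumours. Tnfrsf18, Tnfrsf4 and Il2rb had the highest means in each of the other 3 groups, between 1.67 and 5.07 TPM. Il2ra and Ccr8 had means under 1.5 TPM in every group. The summed level of the 10 genes was lowest in B16F10 Vector 2, at 4.28 TPM, and highest in B16F10 Aoah 2, at 41.8 TPM. B16F10 Vector 2 held the lowest value, alone or tied, for 10 of the 10 genes.

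In the B16F10 model, treated with both antibodies, most of the CD4 and regulatory T cell genes were higher in the Aoah tumours than in the Vector tumours. Il2rb was 9.80-fold higher in mean TPM, Icos 5.23-fold and Cd4 5.10-fold, while Foxp3 was 2.32-fold and Il2ra 1.51-fold higher. Against Vector 1 alone, since Vector 2 was lowest throughout, these folds were 6.18 for Il2rb, 3.12 for Icos, 3.30 for Cd4, 1.37 for Foxp3 and 0.878 for Il2ra, whose direction turned. The 2 groups did not overlap, with Aoah higher, for 8 of the 10 genes, where 28.0% of the genes that passed the expression filter separated that way. Il2ra and Ikzf2 were the 2 that overlapped. After adjustment over 14533 genes by limma, 0 of the 6 genes of the list that passed the expression filter passed the threshold of 0.05, where 0.344% of all genes did. At an unadjusted p below 0.05, 4 of the 6 were higher in Aoah tumours (Cd4, Il2rb, Tnfrsf18 and Icos), where 10.9% of all genes were. Cd4 and Icos reached the filter's 1 TPM in the Aoah tumours alone, so their place and direction in that count were partly set by the filter. All 6 differences were above 0 (51.6% of all genes), with a median of 1.31 on the log2(TPM + 1) scale beside 0.02 over all genes tested. Without the filter all 10 were above 0, at a median of 1.08 beside -0.00083 over 26770 genes, and without Vector 2 as well 9 of the 10, at a median of 0.55. This log scale understates the change of low genes. In whole tumours, more cells of a type and more RNA per cell cannot be told apart.

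The authors' deposited table, which rests on counts, called more genes in this model. It had 8.53% of the genes with an adjusted p past 0.05 in either direction, and 4.65% higher, both as given in the authors' deposited table. Of the 8 listed genes with an adjusted p there, 3 rose: Il2rb, Cd4 and Icos. Ccr8 and Cd40lg have no adjusted p in the authors' deposited table; they had the lowest abundance of the 10 genes, with mean normalised counts of 7.83 and 0.953.

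**Figure D2:**
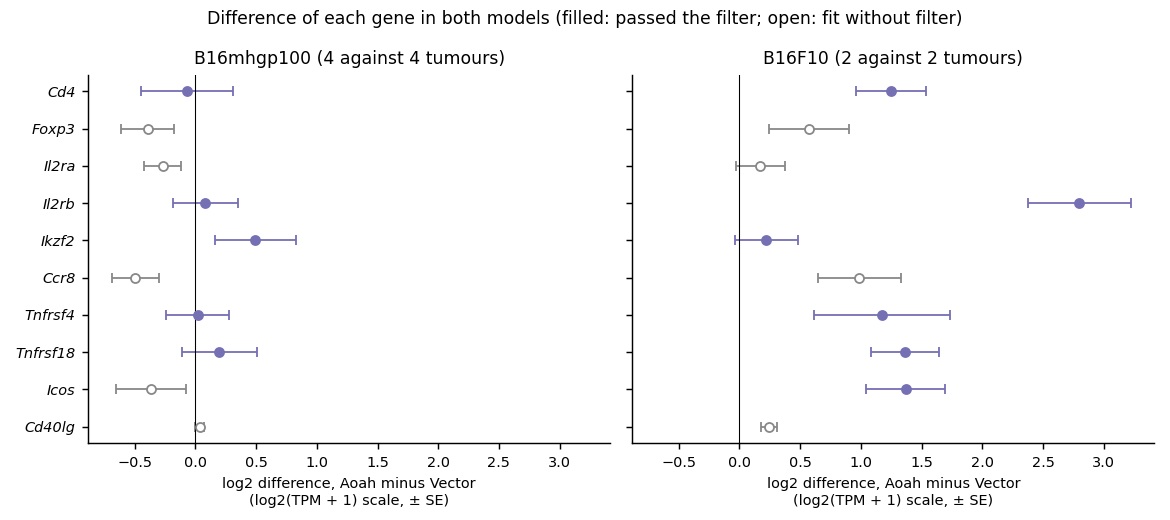
Difference between Aoah and Vector tumours of each gene (horizontal axis, log2(TPM + 1) scale, bars are ± SE from limma) in B16mhgp100 and B16F10. Filled points passed the expression filter of that model and open points come from a fit without the filter; Il2rb lies at 0.08 in B16mhgp100 and at 2.80 in B16F10.

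Cd4, the lineage co-receptor, stood at 0.75 and 0.22 TPM in the B16F10 Vector tumours and at 2.30 and 2.65 TPM in the Aoah tumours. Both Aoah tumours lay above both Vector tumours. The difference was 1.25 (SE 0.29, limma adjusted p = 0.135) on the log2(TPM + 1) scale, and 0.99 without B16F10 Vector 2, which leaves a lone Vector tumour assumed to vary like the others. Cd4 had a log2 fold change of 2.37 (adjusted p = 0.0159) in the authors' deposited table. In B16mhgp100, Cd4 stood at 3.36, 0.60, 1.42 and 0.81 TPM in Vector and at 1.02, 2.84, 0.79 and 0.82 TPM in Aoah tumours. The groups overlapped there, with 1 high tumour in each. The difference was -0.07 (SE 0.38, limma adjusted p = 0.932), and its sign turned to 0.06 when libraries were scaled by median of ratios and to 0.03 without the library labelled Aoah 4.

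Foxp3, the factor that defines regulatory T cells, stood at 0.89 and 0.16 TPM in the B16F10 Vector tumours and at 0.94 and 1.5 TPM in the Aoah tumours. Aoah 1 was barely above Vector 1, and the separation came mostly from the low Vector 2. The gene did not pass the filter in this model. Fitted without the filter, its difference was 0.57 (SE 0.33, limma adjusted p = 0.603), and 0.22 without Vector 2. The log2 fold change in the authors' deposited table was 1.24 (adjusted p = 0.546), at a mean normalised count of 21.0. In B16mhgp100 the sign was the opposite. Foxp3 stood at 1.27, 0.77, 1.56 and 1.10 TPM in Vector tumours and at 0.87, 0.86, 0.75 and 0.20 TPM in Aoah tumours. Vector 2 lay within the Aoah range and the other 3 Vector tumours lay above it. The difference without the filter was -0.39 (SE 0.22, limma adjusted p = 0.725), and -0.24 without the library labelled Aoah 4, where it was lowest. The order of the 4 group means was B16F10 Aoah at 1.22 TPM, B16mhgp100 Vector at 1.18 TPM, B16mhgp100 Aoah at 0.67 TPM and B16F10 Vector at 0.525 TPM. Neighbouring means in that order differed by 0.505 TPM or less, which is near the SDs of 0.318 to 0.516 TPM within groups.

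Ikzf2 encodes Helios, a transcription factor of many regulatory T cells. It stood at 1.16 and 0.84 TPM in B16F10 Vector and at 1.13 and 1.54 TPM in B16F10 Aoah tumours, with overlapping groups and a difference of 0.22 (limma adjusted p = 0.700), or 0.11 without Vector 2. In B16mhgp100 it lay between 0.90 and 1.16 TPM in the 4 Vector tumours and at 1.15, 1.10, 1.40 and 4.86 TPM in the Aoah tumours. The high value belonged to the library labelled Aoah 4. The difference was 0.49 (SE 0.33, limma adjusted p = 0.694) with that library and 0.14 without it.

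The receptor chains of interleukin 2 differed from each other. Il2rb, the signalling beta chain, is also carried by CD8 T cells and natural killer cells, where it serves interleukin 15 as well. In B16F10 it stood at 2.64 and 0.69 TPM in Vector tumours and at 15.05 and 17.57 TPM in Aoah tumours. The Aoah tumours were the highest of all 12 by a wide margin. The difference was 2.80 (SE 0.42, limma adjusted p = 0.0711), and 2.25 without Vector 2. Il2rb had the smallest adjusted p of the 10 genes in the authors' deposited table, at 6.89e-11, with a log2 fold change of 3.34 and its SE of 0.458 at a mean normalised count of 308. In B16mhgp100 Il2rb stood at 3.48, 2.63, 5.13 and 2.56 TPM in Vector and at 4.90, 4.22, 3.43 and 2.27 TPM in Aoah tumours. These groups overlapped almost fully, with a difference of 0.08 (SE 0.27, limma adjusted p = 0.884), or 0.25 without the library labelled Aoah 4.

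Il2ra, the alpha chain that marks regulatory and recently activated T cells, lay between 0.08 and 1.01 TPM in all 12 tumours. It stood at 0.49 and 0.08 TPM in B16F10 Vector and at 0.35 and 0.51 TPM in B16F10 Aoah tumours, and these overlapped. In B16mhgp100 it stood at 1.01, 0.37, 0.77 and 0.68 TPM in Vector tumours and at 0.33, 0.62, 0.35 and 0.33 TPM in Aoah tumours. The Aoah tumours other than Aoah 2 lay below every Vector tumour. Without the filter the differences were 0.17 in B16F10 (limma adjusted p = 0.742), or -0.062 without Vector 2, and -0.27 in B16mhgp100 (limma adjusted p = 0.725).

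Ccr8, a chemokine receptor enriched on regulatory T cells of tumours, stood at 0.41 and 0 TPM in B16F10 Vector tumours and at 0.85 and 2.00 TPM in B16F10 Aoah tumours. The Aoah tumours were above the Vector tumours, with a difference of 0.99 (SE 0.34, limma adjusted p = 0.381) in the fit without the filter, or 0.74 without Vector 2. In B16mhgp100 the values were 1.16, 0.34, 0.84 and 0.44 TPM in Vector and 0.20, 0.52, 0 and 0.07 TPM in Aoah tumours. Aoah 2 alone lay within the Vector range. The difference was -0.49 (SE 0.19, unadjusted p = 0.0343, adjusted p = 0.725 by limma without the filter). A gene at this level rests on few reads: in the authors' deposited table its mean normalised count was 4.08 in B16mhgp100.

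The TNF receptor family members Tnfrsf4 (OX40) and Tnfrsf18 (GITR) are costimulatory receptors that regulatory T cells hold constitutively and other T cells gain on activation. Tnfrsf4 stood at 4.04 and 0.65 TPM in B16F10 Vector and at 4.78 and 6.32 TPM in B16F10 Aoah tumours. Its difference of 1.17 (SE 0.56, limma adjusted p = 0.339) dropped to 0.37 without Vector 2. Tnfrsf18, whose promoter held the STAT match shown above, stood at 1.93 and 1.46 TPM in Vector and at 5.22 and 6.69 TPM in Aoah tumours. The Vector tumours were close to each other here, and the difference was 1.37 (SE 0.28, limma adjusted p = 0.112), or 1.24 without Vector 2. In B16mhgp100 both genes overlapped between the groups. Tnfrsf4 lay between 1.99 and 4.72 TPM in Vector tumours and between 2.83 and 4.57 TPM in Aoah tumours, with a difference of 0.02 (limma adjusted p = 0.974). Tnfrsf18 lay between 2.37 and 6.77 TPM in Vector tumours and between 3.91 and 7.66 TPM in Aoah tumours, with a difference of 0.20 (limma adjusted p = 0.763). The highest Aoah value of both genes came from the library labelled Aoah 4, and without it the differences were -0.11 and 0.01.

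Icos, a costimulatory receptor of the CD28 family whose gene lies beside Ctla4, stood at 0.93 and 0.18 TPM in B16F10 Vector and at 2.96 and 2.84 TPM in B16F10 Aoah tumours. The Aoah tumours were nearly equal and well above both Vector tumours. The difference was 1.37 (SE 0.32, limma adjusted p = 0.136), and 1.01 without Vector 2. Its log2 fold change in the authors' deposited table was 2.50 (adjusted p = 0.0398). In B16mhgp100 Icos stood at 0.90, 0.38, 2.34 and 1.04 TPM in Vector and at 0.59, 0.50, 0.34 and 1.04 TPM in Aoah tumours. The groups overlapped, and the difference without the filter was -0.36 (SE 0.29, limma adjusted p = 0.725). Cd40lg, the ligand by which helper T cells activate antigen-presenting cells, is listed at 0 in 9 of 12 libraries. It stood at 0.10 TPM in B16mhgp100 Aoah 2 and at 0.18 and 0.19 TPM in the B16F10 Aoah tumours.

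In B16mhgp100, treated with anti-PD1 alone, no listed gene separated the groups in either direction, where 0.731% of all genes were higher and 5.15% lower without overlap. Of the 5 listed genes that passed the filter, 0 passed the threshold by limma, and neither did any of the 14228 genes tested (0% called). At an unadjusted p below 0.05 the count was 0 of 5, where 2.46% of all genes stood. Of the genes with an adjusted p in the authors' deposited table, 0.0146% passed, and no listed gene was among them. The differences were above 0 for 4 of the 5 (30.0% of all genes), with a median of 0.08 beside -0.20 over all genes. Tnfrsf4 turned below 0 without the library labelled Aoah 4. Over all 10 genes, fitted without the filter, 5 differences were above 0 and 5 below (Cd4, Foxp3, Il2ra, Ccr8 and Icos), with a median of -0.025 beside -0.011 over 31158 genes. Median-of-ratios scaling moved that median of all genes by 0.21 here, by -0.18 in the interaction and by 0.11 between Vector tumours, so values in these comparisons are read relative to it.

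**Figure D3:**
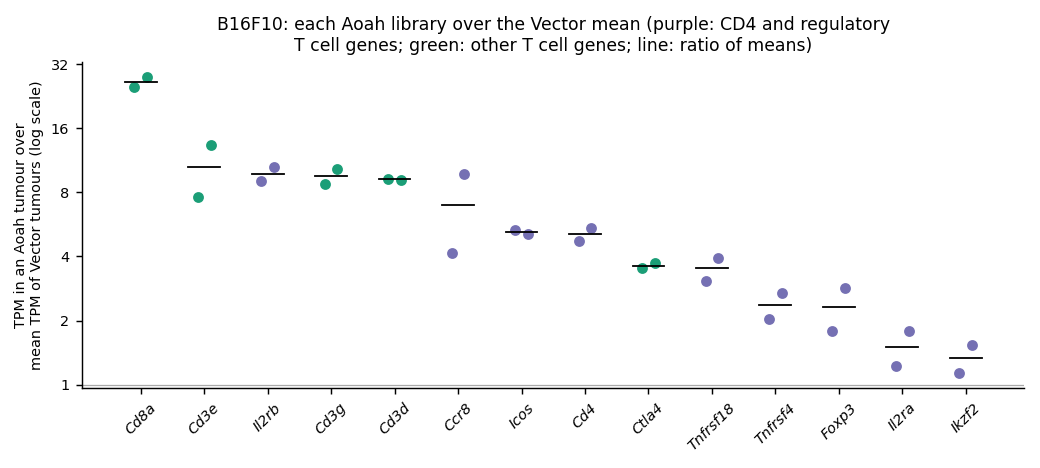
TPM in each B16F10 Aoah tumour divided by the mean TPM of the B16F10 Vector tumours (vertical axis, log scale), with lines at the ratio of means. Cd8a (26.5-fold) and Cd3e (10.5-fold) stand at the left with Il2rb (9.80-fold), and Foxp3 (2.32-fold), Il2ra (1.51-fold) and Ikzf2 (1.34-fold) at the right.

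The general T cell genes gave the scale against which the B16F10 values were set. In that model 14 of 15 shared T cell genes passed the filter, and all 14 were above 0 with an unadjusted p below 0.05, at a median difference of 2.13. None passed the adjusted threshold in limma; the smallest p belonged to Zap70, a kinase of the receptor (2.25, adjusted p = 0.0571), Cd6 (2.29, adjusted p = 0.0603) and Cd3d (2.12). By the authors' deposited table, 11 of the 15 rose. The mean TPM of Cd3d, Cd3e and Cd3g, chains of the T cell receptor complex, was 1.73 and 0.443 in Vector tumours and 9.29 and 11.9 in Aoah tumours. Expressed as a percentage of that mean, Il2rb was nearly level, at 152% and 156% in Vector and 162% and 148% in Aoah tumours. Foxp3 stood at 51.3% and 36.1% in Vector and at 10.1% and 12.6% in Aoah tumours. Relative to that mean, Foxp3 was thus lower in both Aoah tumours. Tnfrsf4 (233% and 147% against 51.5% and 53.2%), Il2ra (28.3% and 18% against 3.77% and 4.29%) and Ikzf2 (66.9% and 189% against 12.2% and 13.0%) were also lower in both. Cd4 stood at 43.3% and 49.6% in Vector and at 24.8% and 22.3% in Aoah tumours, and Icos at 53.7% and 40.6% in Vector and at 31.9% and 23.9% in Aoah tumours. Tnfrsf18 stood at 111% and 329% in Vector and at 56.2% and 56.3% in Aoah tumours. Ccr8 was not lower in both: it stood at 23.7% and 0% in Vector and at 9.15% and 16.8% in Aoah tumours. Cd40lg stood at 0% in both Vector tumours and at 1.94% and 1.60% in Aoah tumours. These shares are values with no test, since 2 against 2 tumours cannot go below p = 0.33 by exact permutation. They also depend on the T cell genes chosen as the scale. Cd247, another chain of the T cell receptor complex, stood at 3.50 and 2.86 TPM in Vector and at 6.19 and 5.73 TPM in Aoah tumours.

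Markers of other cells differed in the same contrast. Over all genes tested there, 51.6% were above 0 and 0.344% passed the threshold in either direction by limma, beside which the next counts are read. The CD8 T cell markers summed to 9.4 and 6.57 TPM in B16F10 Vector tumours and to 48.65 and 59.35 TPM in Aoah tumours. Of 7, 6 passed the filter, all 6 were above 0, and Cd8a (3.25, limma adjusted p = 0.0286) and Cd8b1 (2.76, limma adjusted p = 0.0384) rose. Both calls were lost when any of the 4 libraries was left out, with adjusted p of 0.0828 or more for Cd8a and 0.0945 or more for Cd8b1 by limma, at differences of 3.12 to 3.39 and 2.62 to 2.90. The natural killer cell markers summed to 2.95 and 1.14 TPM in Vector and to 6.57 and 10.86 TPM in Aoah tumours; 2 of 5 passed the filter, both above 0, and Ncr1 and Klre1 were each listed at 0 in 1 Vector tumour. Keratinocyte markers summed to 0.47 and 15.29 TPM in Vector and to 19.38 and 21.75 TPM in Aoah tumours. Of these, 3 of 5 passed the filter, and Krt10 and Lor rose, calls that were lost when any library was left out. Within B16F10, Cd8a, Cd8b1, Gzmk, Klrd1, Krt10 and Lor reached 1 TPM in the Aoah tumours alone. The place and direction of these genes were therefore partly set by the filter. Skeletal muscle markers summed to 18.16 and 166.7 TPM in Vector and to 17.12 and 16.06 TPM in Aoah tumours, with 4 of 5 past the filter, all 4 below 0, none past the threshold. Macrophage markers summed to 591 and 550 TPM in Vector and to 925 and 896 TPM in Aoah tumours, with 6 of 7 above 0 and 1 below. Mast cell markers summed to 21.71 and 30.66 TPM in Vector and to 10.64 and 6.98 TPM in Aoah tumours, with Kit alone past the filter, at -1.42. Kit alone stood at 19.97 and 27.57 TPM in Vector and at 10.02 and 6.55 TPM in Aoah tumours. Cpa3, Mcpt4, Cma1 and Fcer1a lay between 0 and 1.79 TPM in these tumours. The sums therefore follow Kit and give no reading of mast cells. The part of these cells in the Il2rb, Icos and Cd4 values was not tested.

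Ratios within a library were tested in B16mhgp100 by an exact 2-sided permutation test over 4 ratios, in which the smallest possible p is 0.0286. The ratio of Cd8a to Foxp3, often read as effector against regulatory T cells, was 2.55, 1.65, 1.37 and 0.891 in Vector tumours and 3.2, 2.16, 3.76 and 6.95 in Aoah tumours. Only Vector 1 lay within the Aoah range. The log2 difference was 1.12 (exact permutation p = 0.0571, adjusted p = 0.229), and 0.90 without the library labelled Aoah 4. In B16F10 the same ratio was 0.719 and 2.25 in Vector tumours and 13.3 and 9.31 in Aoah tumours, a log2 difference of 3.17. Both Aoah tumours lay above all 10 other tumours. The ratio of Foxp3 to Cd3e was 0.563 and 0.615 in B16F10 Vector and 0.134 and 0.122 in B16F10 Aoah tumours. In B16mhgp100 its log2 difference was -1.06 (exact permutation p = 0.143, adjusted p = 0.229), and -0.47 without the library labelled Aoah 4, where the ratio was lowest at 0.0781. Foxp3 to Cd4 differed by -0.75 in B16mhgp100 (exact permutation p = 0.171, adjusted p = 0.229) and by -0.95 in B16F10. Cd8a to Cd4 differed by 0.37 in B16mhgp100 (exact permutation p = 0.571) and by 2.21 in B16F10. The CD8 T cell markers of B16mhgp100 summed to 14.31, 7.66, 17.62 and 11.97 TPM in Vector tumours and to 29.13, 25.52, 23.74 and 15.65 TPM in Aoah tumours. Of these 5 of 7 passed the filter, all above 0 (30.0% of all genes), and none passed the threshold by limma.

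**Figure D4:**
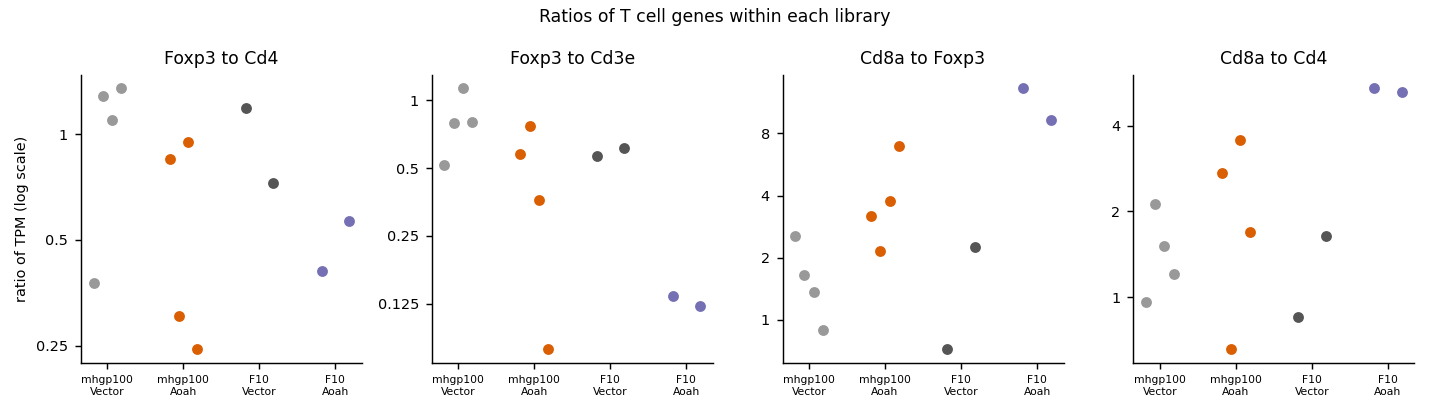
Ratios of TPM within each library (vertical axes, log scale) in the 4 groups, each point 1 tumour. The ratio of Cd8a to Foxp3 is 9.31 and 13.3 in the B16F10 Aoah tumours and at most 6.95 elsewhere.

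Whether the Aoah difference was larger in B16F10 than in B16mhgp100 was tested as an interaction over all 12 libraries. Of the 8 listed genes that passed the filter, 0 passed the threshold by limma, where 0.0302% of 16556 genes did. At an unadjusted p below 0.05, 5 of the 8 were higher (Foxp3, Il2rb, Ccr8, Tnfrsf18 and Icos), where 3.41% of all genes were. Foxp3 and Ccr8 reached the filter's 1 TPM only in B16mhgp100 Vector and B16F10 Aoah tumours, whose values raise the interaction. The place and direction of both in that count were therefore partly set by the filter. The differences were above 0 for 7 of the 8 (61.5% of all genes), with a median of 1.24 beside 0.16. Il2rb had the largest value, 2.72 (SE 0.51, limma adjusted p = 0.170), followed by Icos at 1.73 (limma adjusted p = 0.595), Ccr8 at 1.48 (limma adjusted p = 0.622) and Cd4 at 1.32 (limma adjusted p = 0.849). Foxp3 stood at 0.96 and Tnfrsf18 at 1.17 (both limma adjusted p = 0.849), Tnfrsf4 at 1.15 and Ikzf2 at -0.27. Without B16F10 Vector 2 these were 0.61 for Foxp3, 0.35 for Tnfrsf4 and 2.16 for Il2rb, and 3 of the 8 were higher at an unadjusted p below 0.05. Ikzf2 turned to 0.080 without the library labelled Aoah 4. In the fit without the filter Il2ra stood at 0.44 and Cd40lg at 0.21. There 9 of the 10 genes were above 0 (50.9% of all genes), at a median of 1.16 beside 0.0038 over 32416 genes. With both libraries that stand apart left out, a choice made after seeing the data, Il2rb passed at 2.00 (limma adjusted p = 0.047).

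In Vector tumours the listed genes had lower values in B16F10 than in B16mhgp100. Of the 8 genes that passed the filter, all were below 0, Ikzf2 turning to 0.06 with median-of-ratios scaling (40.0% of all genes were above 0), at a median of -0.55 beside -0.11. Among the Vector tumours, Foxp3 and Ccr8 reached the filter's 1 TPM in B16mhgp100 alone. The place and direction of both in that count were therefore partly set by the filter. By limma 0 of the 8 passed the threshold, where 1.88% of all genes did, and 2 of them, Il2rb and Tnfrsf18, had an unadjusted p below 0.05 (6.95% of all genes were lower in this way). Tnfrsf18 had the largest difference, -0.94 (SE 0.35, limma adjusted p = 0.283), and was the only listed gene without overlap, where 20.4% of all genes were lower in that way. Il2rb differed by -0.81 (limma adjusted p = 0.412), and by -0.25 without B16F10 Vector 2. Cd4 (-0.69), Tnfrsf4 (-0.56), Foxp3 (-0.54), Ccr8 (-0.49), Icos (-0.45) and Ikzf2 (-0.01) had smaller differences. Cd40lg was listed at 0 in all Vector tumours. In the fit without the filter Il2ra differed by -0.42 (limma unadjusted p = 0.0471, adjusted p = 0.503), or by -0.18 without B16F10 Vector 2. Without that library Tnfrsf18 stood at -0.81, Cd4 at -0.43, Ccr8 at -0.24, Foxp3 at -0.19 and Icos at -0.091, and Ikzf2 and Tnfrsf4 turned to 0.11 and 0.25. The median of the 8 genes was then -0.21, with 6 below 0 and none at an unadjusted p below 0.05.

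In Aoah tumours the order was the other way for most of the list. Il2rb was higher in B16F10 by 1.91 (SE 0.36, limma adjusted p = 0.0187) and was the 1 of 8 genes that passed, where 2.08% of all genes were called higher. Both B16F10 Aoah tumours lay above all 4 B16mhgp100 Aoah tumours. The call was lost without either B16F10 Aoah tumour (limma adjusted p = 0.167 and 0.207). Icos differed by 1.29 (SE 0.35, limma adjusted p = 0.0687) and passed without the library labelled Aoah 4 (1.40, limma adjusted p = 0.021). Ccr8 differed by 1.00 (limma adjusted p = 0.103) and, with Il2rb and Icos, made 3 of 8 at an unadjusted p below 0.05, where 10.9% of all genes were higher. Among the Aoah tumours, Ccr8 reached the filter's 1 TPM in B16F10 Aoah 2 alone. Its place and direction in that count were therefore partly set by the filter. Foxp3 differed by 0.42 (limma adjusted p = 0.478), Cd4 by 0.63, Tnfrsf4 by 0.60, Tnfrsf18 by 0.23 and Ikzf2 by -0.28. In the fit without the filter Il2ra differed by 0.026. Cd40lg differed by 0.21 there (limma adjusted p = 0.0322), at 0.18 and 0.19 TPM against at most 0.10 TPM. Without the library labelled Aoah 4, Tnfrsf18 stood at 0.41 and Ikzf2 at 0.072. Without B16F10 Aoah 2, Ccr8 stood at 0.65, Foxp3 at 0.24 and Tnfrsf18 at 0.075. Of the 10 genes, 6 were higher without overlap (Foxp3, Il2rb, Ccr8, Tnfrsf4, Icos and Cd40lg), where 18.9% of the genes that passed the filter were. The differences were above 0 for 7 of 8 (53.0% of all genes), with a median of 0.61 beside 0.03.

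Other genes of regulatory T cells varied among themselves. Ctla4, the target of the antibody given in B16F10 alone, stood at 0.63 and 0.25 TPM in B16F10 Vector tumours and at 1.55 and 1.63 TPM in B16F10 Aoah tumours, a difference of 0.86 (limma adjusted p = 0.190). Of 18 such genes 10 passed the filter in B16F10, and 7 of the 10 were above 0, where 51.6% of all genes were. At an unadjusted p below 0.05, 6 were higher, where 10.9% of all genes were. None passed the threshold, at a median of 0.79 beside 0.02 over all genes. Within B16F10, Ctla4, Tigit, Itgae and Ebi3 reached 1 TPM in the Aoah tumours alone, so their place and direction were partly set by the filter. The smallest p belonged to Tigit, an inhibitory receptor also found on CD8 T cells (2.88, limma adjusted p = 0.0571). Tigit and Tnfrsf1b rose in the authors' deposited table. Between the models, in Aoah tumours, Tigit (2.41), Tgfb1 (1.75) and Itgae (1.05) were higher in B16F10, with limma adjusted p of 0.00735, 0.0274 and 0.0239. These were 3 of 13 that passed the filter, where 2.08% of all genes were called higher. Itgae reached 1 TPM in the B16F10 Aoah tumours alone. When each of the 12 libraries was left out in turn, Tigit passed in 10 fits and Tgfb1 and Itgae in 8 each. In B16mhgp100 5 of the 11 that passed the filter were above 0, where 30.0% of all genes were, and none passed. Their median there was -0.064 beside -0.20 over all genes.

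Over all genes tested in B16F10, 51.6% were above 0, at a median of 0.02, beside which the next counts are read. Among helper lineage genes, 5 of 7 were above 0 in B16F10 and none passed by limma. Ifng (1.58), Tbx21 (1.54), the T-bet factor of type 1 responses, and Zbtb7b (0.75), which sets the CD4 lineage, had the smallest p. Within B16F10, Ifng, Tbx21 and Il16 reached 1 TPM in the Aoah tumours alone, so their place and direction were partly set by the filter. Both Zbtb7b and Tbx21 rose in the authors' deposited table. Of the interleukin 2 pathway 9 of 11 were above 0 and none passed by limma, with Socs1, a feedback inhibitor of cytokine signalling, at 2.12 (limma adjusted p = 0.0585), and Il2 itself at 0 TPM in all 4 B16F10 tumours. Il2rg, Jak3 and Socs1 rose in the authors' deposited table. All 5 of the other TNF receptor family genes that passed the filter were above 0, with Cd27 at 1.68 and Tnfrsf9 at 1.38. Of ligands and partners 6 of 8 were above 0, with Il16, a cytokine that binds CD4, at 1.37. Ccl17, a chemokine that draws CCR4-bearing T cells, was higher in B16F10 than in B16mhgp100 Vector tumours by 2.27 (limma adjusted p = 0.0115). It stood at 5.08 and 4.16 TPM against at most 0.36 TPM, and passed in 10 of 12 fits that each left out 1 library. In that comparison 1.88% of all genes passed in either direction. Ccl17 reached 1 TPM in B16F10 tumours alone, so its place and direction there were partly set by the filter.

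In B16mhgp100 none of these lists had a gene past the threshold. Over all genes tested there, 30.0% were above 0, at a median of -0.20, so each list below lay above that median. The shared T cell genes were above 0 for 8 of the 11 that passed the filter, at a median of 0.15, the helper genes for 3 of 5 at 0.10 and the interleukin 2 pathway for 5 of 11 at -0.03. The ligands were above 0 for 5 of 6 at 0.31 and the other TNF receptor family for 3 of 4 at 0.40. Socs1 had the smallest p of them (0.73, unadjusted p = 0.0162 by limma).

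The genes most like Cd4 across the 12 tumours, by Pearson's r of log2(TPM + 1) among 16555 genes, were Il16 (r = 0.938, Spearman's rho 0.958), Zc3h12d (0.934), Sorl1 (0.928), Gsap (0.917) and Ikzf1 (0.912). Without the library labelled Aoah 4 the r of these was between 0.925 and 0.951. The genes most like Foxp3 were Tk2 (r = 0.926, rho 0.846), Acer3 (0.926), Epha3 (0.913), Bid (0.906) and Kdm1b (0.903), with r between 0.856 and 0.917 without that library. Both sets of points share 12 libraries in 4 groups, and the values are descriptions with no test. No gene was among the 5 most like both Cd4 and Foxp3.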

How the data were processed

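Groups and replicate numbers were taken from the sample titles. The authors deposited log2 values that gave TPM after removal of a pseudocount of 1; per the submitters' processing notes, RSEM and the build mm39 were used; software releases were not stated in the labels. For each model the authors deposited a table made with DESeq2, per the submitters' processing notes, that holds the mean normalised count as a signal per gene, a score for the test, p-values and the log2 fold change with its SE. A deposited repertoire summary was read for the closing observations. The plan allowed for a count model, but no counts per library were used here, so it was not run.

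Log2(TPM + 1) was fitted with limma 3.58.1 (R 4.3.3) with an intensity trend, 2-sided, with Benjamini-Hochberg adjustment over all genes kept and a threshold of 0.05. The filter required 1 TPM or more in 4 libraries in B16mhgp100 and in 2 in the other fits, the size of the smaller group. The code was tested on simulated data. Each model was fitted alone, and the interaction and the comparisons between models used 12 libraries. Ratios used TPM + 0.1 and scipy 1.17.1. All 10 genes are named in each comparison. Of the other lists, the text names genes past the threshold or, where none passed, up to 3 with the smallest p. It does not cover every list in every comparison. The genes and lists were chosen with earlier results of these data known. The kit is not stated to keep strand. Alternatives were another pseudocount, no filter, scaling by median of ratios, array weights, no trend, a replicate block, all libraries in the fit and leaving out each library.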

Additional observations from a re-analysis of the deposited data

Results flagged for a closer look

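Of 28 groups of 4 tumours examined, 7 held a value that stood far from the other 3 by Dixon's criterion, which by chance flags about 1 in 20 groups. Only B16mhgp100 has groups of that size. In the library labelled Aoah 4, Ikzf2 stood at 4.86 TPM against 1.10 to 1.40 in the other Aoah tumours, Tnfrsf4 at 4.57 TPM against 2.83 to 3.05, and Tnfrsf18 at 7.66 TPM against 3.91 to 4.44. In Aoah 2, Cd4 stood at 2.84 TPM against 0.79 to 1.02, Il2ra at 0.62 TPM against 0.33 to 0.35, and Cd40lg at 0.10 TPM against 0, where a lone value above 0 always meets the criterion. In Vector 1 the log2 ratio of Foxp3 to Cd4 was -1.34 against 0.13 to 0.40 in the other Vector tumours.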

How the results depend on the processing

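The number of listed genes past the threshold stayed at 0 under every alternative for Aoah against Vector in B16mhgp100 and for B16F10 against B16mhgp100 in Vector tumours. For B16F10 (0 as reported) it was 1 with array weights (Il2rb, adjusted p = 0.0434) and 1 with all 12 libraries in the fit (Il2rb, adjusted p = 0.0194). For the interaction (0) it was 1 with both libraries that stand apart left out. Between the models in Aoah tumours (1) it was 2 with no filter, 3 with array weights, 2 with both libraries out, and 0 to 2 when each library was left out. Leaving out each library gave 0 to 0 in the other 4 comparisons.

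Replicate numbers are shared by the groups, but same-numbered tumours did not deviate together (r between -0.289 and 0.017 in B16mhgp100 and -0.108 in B16F10), so they share only a number. With a replicate block the count was 4 in B16F10 (Cd4, Il2rb, Tnfrsf18 and Icos), 0 in B16mhgp100, 0 for the interaction, 0 in Vector tumours and 0 in Aoah tumours. The crossed replicate block in B16F10, added after seeing the data, gave 4 listed genes and 910 of all genes.

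No difference whose sign turned had passed the threshold, and the largest of them was Tnfrsf4 in Vector tumours, at -0.56 as reported. In B16mhgp100 Cd4 was 0.060 with scaling and 0.014 with array weights, Tnfrsf4 was -0.21 and Tnfrsf18 -0.0026 with array weights. Ikzf2 was 0.041 for the interaction with array weights, 0.068 in Aoah tumours with array weights and 0.072 with both libraries out, and in Vector tumours 0.059 with scaling, 0.027 with array weights, 0.16 with the block and 0.11 with both libraries out, where Tnfrsf4 was 0.25. When each library was left out, Cd4 ranged from -0.33 to 0.23, Il2rb from -0.038 to 0.25, Tnfrsf18 from -0.0075 to 0.39 and Tnfrsf4 from -0.15 to 0.16 in B16mhgp100; Ikzf2 from -0.41 to 0.080 for the interaction, -0.42 to 0.072 in Aoah tumours and -0.12 to 0.11 in Vector tumours; and Tnfrsf4 from -1.36 to 0.25 in Vector tumours. The log2 ratios kept their sign, at 0.06 to 0.83 for Cd8a to Cd4, 0.88 to 1.36 for Cd8a to Foxp3, -1.41 to -0.47 for Foxp3 to Cd3e and -1.16 to -0.51 for Foxp3 to Cd4. Of 600 alternative values of single genes, 554 kept their sign and side of the threshold. The cause was not tested.

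Counts over all genes moved more. B16mhgp100 (0) gave 1 with a pseudocount of 0.1, 5 with array weights and 0 to 2 leaving out each library. B16F10 (50) gave 32 with that pseudocount, 0 with no filter, 127 with scaling, 115 with array weights, 16 without trend, 765 with the block and 0 leaving out any library. The interaction (5) gave 46 with no filter, 10 with scaling, 31 with array weights, 11 without trend, 3 with the block, 441 with both libraries out and 2 to 45 leaving out each. Vector tumours (312) gave 485 with scaling, 515 with array weights, 82 with the block, 853 with both out and 115 to 2113. Aoah tumours (612) gave 1382, 6160, 76, 4886 and 77 to 3448.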

Other observations

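In the deposited repertoire summary, T cell receptor beta clones numbered 30 and 32 in the B16F10 Aoah tumours, 2 and 1 in the B16F10 Vector tumours, and between 3 and 8 in the B16mhgp100 tumours. The B16F10 Aoah tumours were also those with the highest Il2rb, Icos and Cd3e.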
